A study of Mus musculus with 6 samples.

Results

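The B cell receptor (BCR) and its coreceptors were followed through 37 genes, listed by symbol: the signaling chains of the receptor, coreceptors, inhibitory receptors, kinases, adaptors and phosphatases. All 37 were among the 24499 genes counted, and all passed the filter on low counts that left 13296 genes for testing. They were counted in polyA RNA of in vitro germinal center B cells (iGCBs) sorted as YFP+ on day 3, with 1 library from each of 3 cKO mice and 3 control mice. cKO mice were Eif3e fl/fl Cγ1Cre Rosa26-YFP LSL, so that Cre deletes Eif3e, a subunit of the translation initiation factor eIF3, and turns on YFP in the same cells. Control animals are described by the study as Cγ1Cre Rosa26-YFP LSL, and the labels of these libraries list neither their alleles nor the age of any mouse. Every library, control included, therefore came from cells that had expressed Cre, which is expressed from the Ig γ1 locus and so in only some of the activated B cells. Naïve B cells from the spleen were grown on 40LB cells, a BALB/c 3T3 fibroblast line that supplies CD40L and BAFF, after irradiation of the feeders at 120 Gy, with IL-4 at 1 ng/mL. The comparison asks how the RNA of receptor signaling differed when Eif3e was deleted, with activators set against inhibitors.

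When antigen binds the BCR, Src family kinases phosphorylate the tails of CD79A and CD79B, SYK docks there, and a complex around BLNK, BTK and PLCγ2 passes the signal on to calcium, Ras, PI3K and NF-κB. A coreceptor complex that includes CD21 and CD81 lowers the threshold for this signal. Inhibitory receptors such as CD22 and FcγRIIB recruit the phosphatases SHP-1 and SHIP1, and CSK holds the Src family kinases in check, which together keep germinal center B cells from responding too strongly. Some members act both ways or have an unsettled sign, such as LYN and CD45, and were kept as a class of their own.

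Totals ran from 39079582 to 45504570 counts per library. The deleted gene checked the labels: Eif3e stood at 173, 149.8 and 152 CPM in cKO and 424, 401 and 392.4 CPM in control (CPM, counts scaled to a common library size), 39% of the control mean, with a log2 fold change of −1.36 ± 0.06 and an edgeR adjusted p of 6.71e-07. All log2 fold changes are of cKO over control and are given ± SE (n = 3 mice per group). Markers of B cells were abundant in every library, summing to 11755–11983 CPM over 8 genes in cKO and 15682–16363 in control. The 6 germinal center markers summed to 269–278 and 355–427 CPM, and the 5 plasma cell markers to 646–788 and 831–852 CPM. All 3 sums were lower in cKO, but the genes within each list were split. By edgeR, 3 of the B cell markers were called higher and 4 lower, and Cd74 alone made up most of the sum in every library. Of the germinal center markers 1 was called higher and 4 lower. Of the plasma cell markers Irf4, the most abundant of them, and Sdc1 (302% of the control mean) were called higher, and Jchain (6.23%), Prdm1 (45.6%) and Xbp1 (46.7%) lower. The part of these differences in the results was not tested. Xist had 53272 counts in cKO 2, 58899 and 70912 in control 1 and control 2, and 16 or fewer in the others, so the groups mixed sexes in unequal numbers.

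More members were lower than higher in cKO iGCBs. Of the 37, 7 were called higher and 14 lower at an adjusted p under 0.05 by edgeR's quasi-likelihood test, and 16 were not called. Calls were common throughout these data: 48.6% of all genes tested were called, 24.1% higher and 24.5% lower. The members' share called was 56.8%, with 18.9% higher and 37.8% lower. Calls were more common at high levels: 26 members averaged 100 CPM or more and 17 of these were called (65.4%), against 71.2% of all genes at that level. The median log2 fold change was −0.13 over the members and −0.00402 over all genes tested. No overlap between cKO and control libraries was seen in 22 members (59.5%), as in 58.7% of all genes. Past a fold of 1.5 as well, 6 members remained. Cr2 and Ptprj were higher, and Fcgr2b, Blk, Fyn and Pik3ap1 lower. All genes passed this pair of cutoffs at 21%, 10.4% higher and 10.6% lower. In bulk RNA, fewer cells that express a gene and less RNA per cell cannot be told apart.

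**Figure D1:**
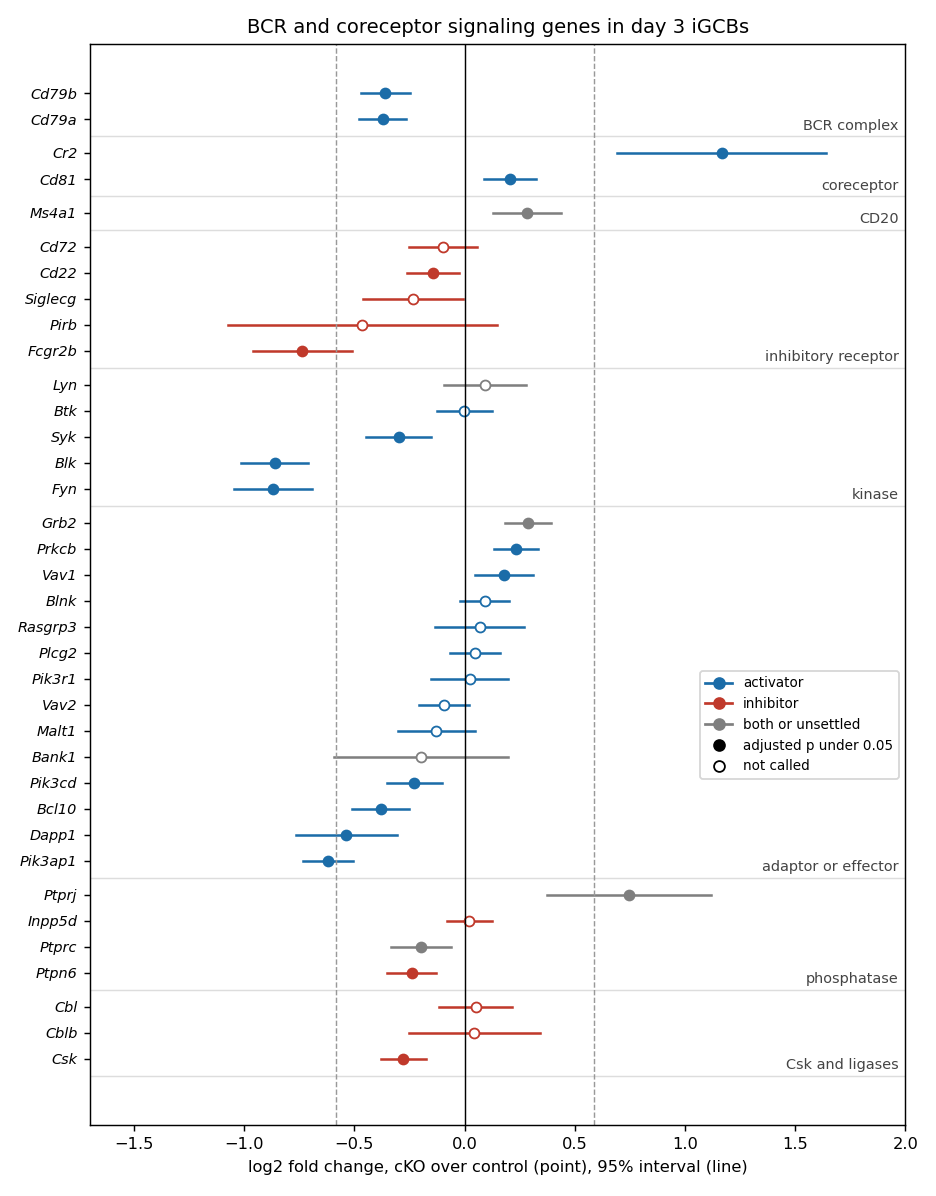
Log2 fold change of each member (horizontal axis, cKO over control, dashed lines at a fold of 1.5) with its 95% interval, grouped by role; filled points passed an adjusted p under 0.05. Cr2 (1.17) and Ptprj (0.75) lie to the right of the dashed lines, Fcgr2b, Blk, Fyn and Pik3ap1 to the left, and most others within them; Lair1 is left out because its interval (−2.44 to 2.04) is wider than the axis.

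Set against each other, activators and inhibitors both leaned lower. Of 20 activators, 4 (20%) were called higher and 9 (45%) lower, with a median log2 fold change of −0.11. Of 11 inhibitors, 4 were called lower and 7 were not called, with a median of −0.20. None of the 11 was called higher by edgeR, at an unadjusted p under 0.05 or by DESeq2. Among all genes tested 48.6% were called, 24.1% higher and 24.5% lower. The inhibitors' share called, 36.4%, was thus below that of all genes. The 6 genes that act both ways or are unsettled had 3 calls higher and 1 lower, with a median of 0.19. The medians rest in part on single libraries, since the activators' ran from −0.16 without control 1 to −0.07 without control 3, and the inhibitors' from −0.11 without cKO 2, and −0.12 without control 3, to −0.22 without control 2. Counting the 6 unsettled genes as activators gave an activator median of −0.05. The inhibitors' median is the value of Lair1, which had 0 to 17 counts per library, and it was −0.18 when genes under 10 counts in any library were left out. Without cKO 2 the order of the classes turned, at −0.13 for the activators and −0.11 for the inhibitors. The difference between the classes was not tested.

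The same counts were also read library by library, which restates the lean and is not separate evidence for it. As the median deviation of a class from each gene's mean log2 level, activators stood at −0.04, −0.09 and −0.10 in cKO and at 0.02, 0.07 and 0.03 in control. Inhibitors stood at −0.04, −0.16 and −0.07 in cKO and at 0.01, 0.11 and 0.15 in control. Every cKO library lay below every control library in both classes, by amounts that are small beside the changes of the 6 genes above. Taken singly, 58.7% of all genes tested showed no overlap between the groups. The 6 unsettled genes gave 0.03, 0.02 and 0.18 in cKO and −0.15, −0.17 and 0.02 in control, where cKO 2 and control 3 were nearly level.

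**Figure D2:**
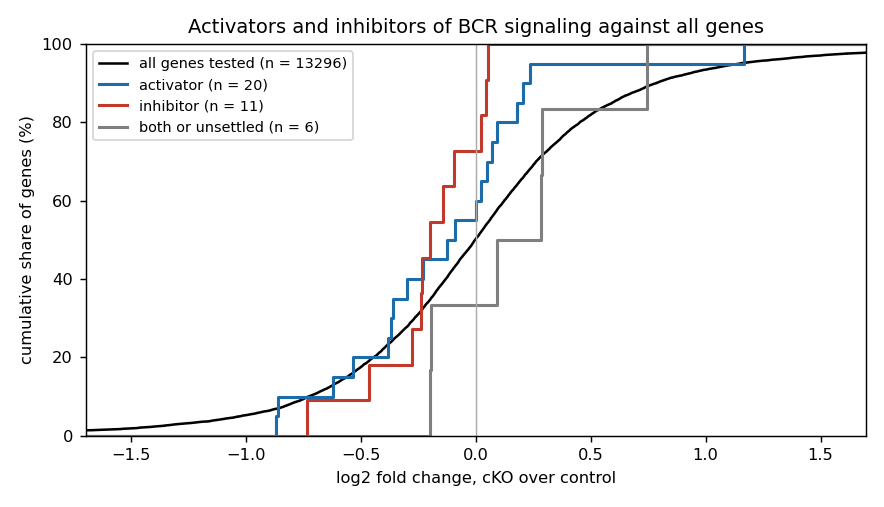
Cumulative share of genes (vertical axis, percent) at or below each log2 fold change (horizontal axis, cKO over control) for all 13296 genes tested, 20 activators, 11 inhibitors and 6 genes that act both ways or are unsettled. The inhibitor curve reaches 100% at 0.05, the log2 fold change of Cbl, while the activator curve runs on to Cr2 at 1.17.

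Both signaling chains of the receptor were lower in cKO. CD79A and CD79B form the heterodimer whose tails carry the tyrosine motifs that start the signal. Cd79a stood at 765, 731 and 797 CPM in cKO and 967, 1029.6 and 969.8 CPM in control. Cd79b stood at 645, 603 and 596 CPM in cKO and 785, 763 and 818 CPM in control. The cKO libraries lay below all control libraries for both genes, with log2 fold changes of −0.37 ± 0.048 (edgeR adjusted p = 0.000139) and −0.36 ± 0.049 (edgeR adjusted p = 0.000202). The pair fell in step: the ratio of Cd79a to Cd79b per kilobase of transcript was 0.973, 0.995 and 1.097 in cKO and 1.01, 1.11 and 0.972 in control, with overlapping ranges. The heavy and light chains that bind antigen were not analysed here.

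The coreceptor members Cr2 and Cd81 moved the other way. Cr2 (chromosome 1, 195136811 to 195176716, minus strand, GRCm38), which encodes the complement receptor CD21, had the largest fold change of the 37 genes, from a low level. It stood at 14.2, 12.0 and 16.4 CPM in cKO and 4.21, 7.07 and 7.72 CPM in control, from 539–695 and 190–318 counts. All 3 cKO libraries were above all 3 control libraries, and the highest control was under the lowest cKO by over 4 CPM. The log2 fold change was 1.17 ± 0.21 with an edgeR adjusted p of 0.00129, or 2.24 times the control level. Leaving out control 1, the lowest library, gave the smallest value of any setting, 0.94. Cd81, a tetraspanin of the coreceptor complex, stood at 168, 173 and 185 CPM in cKO and 155, 148 and 153 CPM in control. Its libraries did not overlap either, with a log2 fold change of 0.20 ± 0.053 (edgeR adjusted p = 0.00942). Ms4a1, which encodes the B cell surface protein CD20, stood at 704, 677 and 722 CPM in cKO and 549.6, 536 and 645 CPM in control, a log2 fold change of 0.28 ± 0.069 (edgeR adjusted p = 0.00696). Control 3 was the nearest to the cKO libraries but stayed below them.

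**Figure D3:**
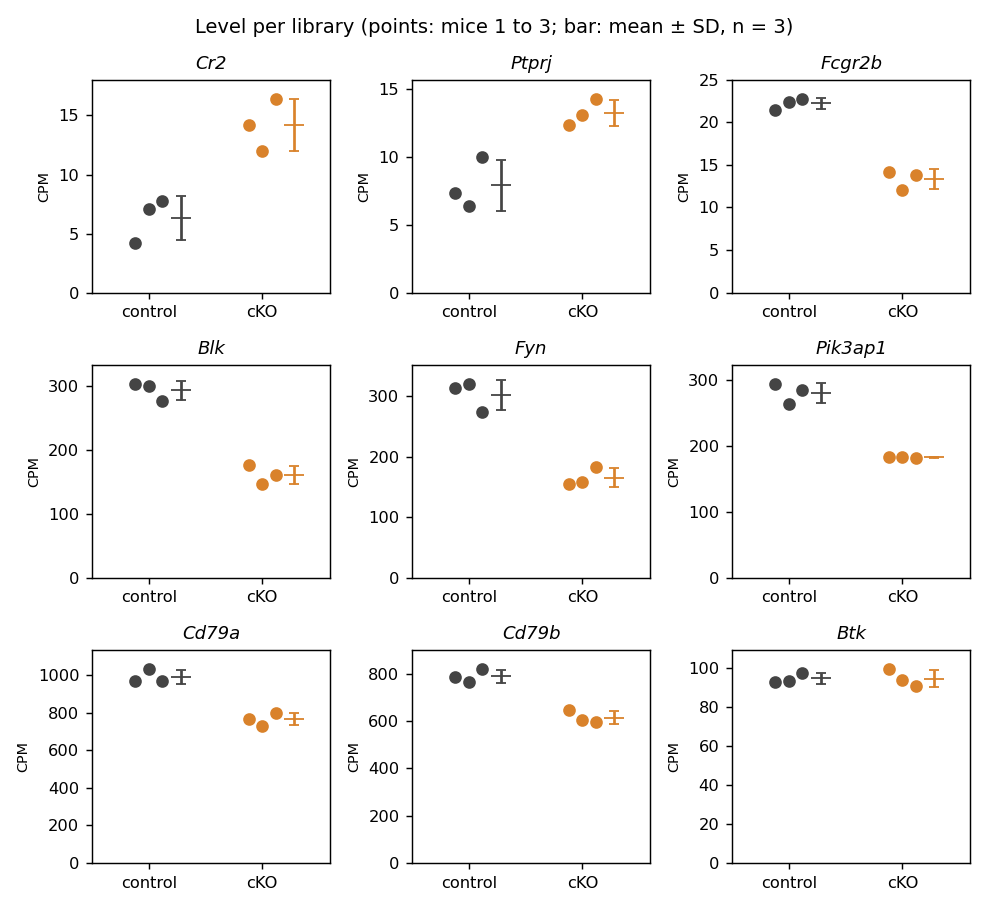
Level of 9 members in each library (vertical axes, CPM, from 0), with control and cKO mice as points and the mean ± SD (n = 3) as bars. Cr2 and Ptprj are higher in every cKO library, Fcgr2b, Blk, Fyn, Pik3ap1, Cd79a and Cd79b lower in every one, and Btk overlaps between the groups.

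Cr2 and Pik3ap1 changed in opposite directions, and the 250 bases before their annotated starts are shown because these stretches hold the same pair of short motifs. Capitals mark the ETS core GGAAGT (reverse complement ACTTCC) and the E-box CAGGTG (reverse complement CACCTG), both of which are bound by factors of B cell development, PU.1 and E2A among their families. The sequences are from RefSeq on GRCm38.p6, read 5′ to 3′ on the minus strand, Cr2 at chr1:195176720-195176969 and Pik3ap1 at chr19:41385103-41385352, and neither overlaps an annotated exon.
Cr2: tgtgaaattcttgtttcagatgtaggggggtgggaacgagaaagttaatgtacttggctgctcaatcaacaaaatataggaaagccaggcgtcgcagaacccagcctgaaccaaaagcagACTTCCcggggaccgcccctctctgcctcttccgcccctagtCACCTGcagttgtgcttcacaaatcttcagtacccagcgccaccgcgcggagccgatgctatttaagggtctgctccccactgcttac
Pik3ap1: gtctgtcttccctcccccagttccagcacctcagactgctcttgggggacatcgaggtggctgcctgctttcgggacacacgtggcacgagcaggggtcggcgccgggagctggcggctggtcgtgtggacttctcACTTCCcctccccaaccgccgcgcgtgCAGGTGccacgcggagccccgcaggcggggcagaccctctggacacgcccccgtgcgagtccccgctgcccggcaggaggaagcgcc
Windows of this kind were found for 32 of the 37 members, 42 windows in all. The entries of Fcgr2b, Fyn and Ptprj overlap annotated exons and are not shown. Counted on both strands, GGAAGT was in 17 of the 42 windows (40.5%) and in 19.7% of all 32851 promoter windows of the same length. CAGGTG was in 15 (35.7%) and in 17.2% of all. The GC box GGGCGG was in 16 (38.1%) against 32.7%, and the octamer ATGCAAAT in 2 (4.76%), those of Blnk and Prkcb, against 1.601%. A match is a description of the letters only, and these 4 motifs were picked after a wider look at the same windows.

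Among the inhibitory receptors, Fcgr2b was lower past both cutoffs, Cd22 was lower by a small and unsteady margin, and the other 4 were not called. Fcgr2b (chromosome 1, 170958617 to 170976547, minus strand) encodes FcγRIIB, the Fc receptor through which IgG complexes restrain the BCR. It stood at 14.1, 12.0 and 13.8 CPM in cKO and 21.5, 22.4 and 22.7 CPM in control, from 541–642 and 882–969 counts. The 2 groups were far apart, with all cKO libraries under 15 CPM and all control libraries above 21 CPM. The log2 fold change was −0.74 ± 0.10 (edgeR adjusted p = 0.000207), or 60.0% of control, and it ran from −0.80 to −0.67 over the other settings. Myeloid cells also express this gene, and the 9 myeloid markers summed to 13.1–14.3 CPM in cKO and 10.5–13.8 CPM in control, with Ly6g at 0 in every library. This sum was mostly Cd68 and Adgre1, which did not move together. Adgre1 was called higher, at 3.64, 4.67 and 5.54 CPM in cKO and 0.620, 0.916 and 2.02 CPM in control (edgeR adjusted p = 0.00203), whereas Cd68 was not called at −0.32 ± 0.13 on the log2 scale. Their part in the lower level of Fcgr2b was not tested. The starting cells were naïve B cells purified with beads, and the cultured cells were sorted as YFP+.

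Cd22, the sialic acid-binding receptor that recruits SHP-1, was the most abundant member by CPM. It stood at 1004, 932 and 1016 CPM in cKO and 1018, 1108 and 1136 CPM in control. The lowest control library was just above the highest cKO library, and the log2 fold change of −0.14 ± 0.053 passed narrowly (edgeR adjusted p = 0.0467). That call did not last, as 11 of 16 other settings gave an adjusted p above 0.05. Leaving out cKO 1, cKO 2, cKO 3, control 2 or control 3 each did so, with values up to 0.169. Siglecg, a related receptor, stood at 125, 119 and 154 CPM in cKO and 140.2, 158 and 171 CPM in control, and cKO 3 fell among the control libraries. Its log2 fold change of −0.24 ± 0.10 was not called (edgeR adjusted p = 0.0798), whereas 5 other settings called it lower, among them DESeq2 (adjusted p = 0.0429) and the fit without cKO 3 (0.00736). Cd72, a lectin-like receptor with an inhibitory tail, had a log2 fold change of −0.10 ± 0.069 with a 95% interval of −0.25 to 0.058. Pirb, which binds MHC class I, averaged 2.75 CPM in control, with a log2 fold change of −0.46 ± 0.27 and an interval of −1.08 to 0.15; it has close relatives in the Pira genes, between which reads may be shared. Lair1, a collagen receptor, had 17, 7 and 0 counts in cKO and 11, 5 and 10 in control, too few for a difference to be detected. None of these last 3 was called.

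The Src family kinases that begin the signal split. Blk (chromosome 14, 63372836 to 63417037, minus strand), a kinase largely restricted to B cells, stood at 176, 147 and 161 CPM in cKO and 303, 301 and 277 CPM in control. Fyn (chromosome 10, 39368855 to 39565381, plus strand), expressed in many cell types, stood at 155, 158 and 183 CPM in cKO and 313, 319 and 273 CPM in control. For each gene the highest cKO library was under the lowest control library by more than 85 CPM. The log2 fold changes were −0.86 ± 0.069 (edgeR adjusted p = 7.31e-06) and −0.87 ± 0.079 (edgeR adjusted p = 1.58e-05), or 55.0% and 54.7% of control. They stayed between −0.93 and −0.76 for Blk and between −0.95 and −0.81 for Fyn in every other setting. Lyn, which both starts the signal and phosphorylates the inhibitory receptors, stood at 134, 136 and 167 CPM in cKO and 137, 130.2 and 143 CPM in control. Its groups overlapped, with a log2 fold change of 0.093 ± 0.083 and a 95% interval of −0.092 to 0.28 (edgeR adjusted p = 0.387).

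The mix of the 3 kinases differed, with no overlap between groups in the ratios to Lyn. Per kilobase, Blk was 1.94, 1.598 and 1.43 times Lyn in cKO libraries and 3.26, 3.41 and 2.87 times in control libraries. Fyn was 1.12, 1.13 and 1.07 times Lyn in cKO and 2.23, 2.41 and 1.86 times in control. Lyn made up 26.7% ± 2.01 (SD, n = 3) of the 3 together in cKO and 15.8% ± 1.45 (SD, n = 3) in control, while their sum was 159 ± 10.8 and 252 ± 12.4 CPM per kilobase. Fibroblasts and T cells also express Fyn: the 12 fibroblast markers summed to 107–132 CPM in cKO and 80.2–152 CPM in control, and 6 T cell markers to 1.69–2.07 and 2.33–4.63 CPM. Most of the T cell sum in every library was Cd28, at 1.697, 1.69 and 1.74 CPM in cKO and 4.28, 4.61 and 2.16 CPM in control, which was called lower (log2 fold change −1.10 ± 0.30, edgeR adjusted p = 0.0113). Cd3e was at 0 in every library, and Cd3d, Cd3g, Cd4 and Cd8a had 4 to 16 counts each over all 6 libraries together. The fibroblast markers did not move together: 10 were tested, of which Fn1 and Fbn1 were called higher and Lox lower. Fn1 stood at 38.3, 46.8 and 35.7 CPM in cKO and 22.4, 21.4 and 13.6 CPM in control, and Fbn1 had 207, 139 and 172 counts in cKO and 0 in every control library. Their sum thus does not show that fibroblast RNA was alike in both groups. With the mean log2 CPM of the fibroblast markers as a covariate the log2 fold change of Fyn was −0.91, and with the collagen and Sparc genes alone, chosen after the data were seen, it was −0.81. The first covariate includes Fn1 and Fbn1, which differed by genotype, and the part of fibroblasts and T cells in Fyn was not tested further.

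Of the kinases that follow, Syk was lower and Btk was not called. Syk, which docks on the phosphorylated receptor, stood at 182, 159 and 176 CPM in cKO and 212, 225 and 198 CPM in control, with no overlap and a log2 fold change of −0.30 ± 0.066 (edgeR adjusted p = 0.00384). Btk, the X-linked Tec kinase that activates PLCγ2, stood at 99.4, 93.8 and 90.9 CPM in cKO and 92.9, 93.6 and 97.8 CPM in control. Its groups lay over each other, and the 95% interval of the log2 fold change, −0.12 to 0.12, leaves room for differences of up to 0.12 in either direction.

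The core of the signalosome showed no call. Blnk, the adaptor that joins SYK to BTK, had a log2 fold change of 0.090 ± 0.050 (95% interval −0.021 to 0.20). Plcg2, the lipase that produces the second messengers, had 0.049 ± 0.051 (−0.065 to 0.16). Both intervals end within a fold of 1.5.

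In the phosphatidylinositol 3-kinase (PI3K) arm, RNA of the members Pik3ap1 and Pik3cd was lower. Of 9 further PI3K and AKT genes tested, 3 were called higher and 4 lower. Pik3ap1 (chromosome 19, 41272377 to 41385102, minus strand) encodes BCAP, which links the receptor to PI3K, and its 5′ sequence is shown above. It stood at 183, 183 and 182 CPM in cKO and 294, 264 and 284 CPM in control. The 3 cKO libraries were within 1 CPM of each other and all below the controls, with a log2 fold change of −0.62 ± 0.052 (edgeR adjusted p = 9.08e-06), or 65.1% of control. Pik3cd, the catalytic subunit p110δ, stood at 322, 313 and 325 CPM in cKO and 386, 391 and 348 CPM in control, a log2 fold change of −0.23 ± 0.056 (edgeR adjusted p = 0.00652). Its groups did not overlap, though control 3 was close to the cKO libraries, and the call was lost when the mean log2 CPM of 4 collagen genes and Sparc was added as a covariate (adjusted p = 0.0548). These 5 of the 12 fibroblast markers were picked after the data were seen and leave out Fn1 and Fbn1, which were higher in cKO. The 5 summed to 54.2–59.2 CPM in cKO and 92.9, 87.5 and 42.2 CPM in control. Pik3r1, the regulatory subunit p85α, was not called at 0.023 ± 0.079 (95% interval −0.15 to 0.20). Dapp1, the adaptor Bam32 that binds PI3K products, stood at 31.4, 29.1 and 29.9 CPM in cKO and 50.3, 42.0 and 38.9 CPM in control. Every cKO library was under every control library, and the log2 fold change was −0.54 ± 0.10 (edgeR adjusted p = 0.00158), just short of a fold of 1.5.

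Of the exchange factors and adaptors leading to Rac and Ras, Vav1 and Grb2 were slightly higher and the others were not called. Vav1, an exchange factor for Rac, stood at 174, 173 and 184 CPM in cKO and 147, 156 and 166 CPM in control. The log2 fold change was 0.18 ± 0.058 (edgeR adjusted p = 0.0284), and the call was lost in 7 of 16 other settings: without cKO 1, cKO 2, cKO 3, control 1 or control 2, and with Xist or the collagen level as a covariate. Vav2 did not overlap between groups yet was not called at −0.093 ± 0.051 (edgeR adjusted p = 0.163). Grb2, the adaptor that brings in the Ras exchange factor SOS and can also dampen calcium signals in B cells, stood at 608, 614 and 630.2 CPM in cKO and 509, 486 and 522 CPM in control. It was higher in all cKO libraries, with a log2 fold change of 0.29 ± 0.047 (edgeR adjusted p = 0.000585). Rasgrp3, a Ras exchange factor opened by diacylglycerol, was not called at 0.068 ± 0.091 (95% interval −0.13 to 0.27), and its cKO libraries spread from 178 to 239 CPM.

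On the way to NF-κB, Prkcb was higher and Bcl10 lower. Prkcb, a protein kinase C needed for NF-κB activation by the BCR, stood at 544, 535 and 561 CPM in cKO and 458, 469.6 and 467 CPM in control. All cKO libraries were higher, with a log2 fold change of 0.23 ± 0.045 (edgeR adjusted p = 0.00159). Bcl10, an adaptor that forms filaments on the way to NF-κB, stood at 142, 146 and 144 CPM in cKO and 202, 177 and 184 CPM in control. All cKO libraries were lower, with a log2 fold change of −0.38 ± 0.059 (edgeR adjusted p = 0.000413). Malt1, the protease partner of BCL10, was not called at −0.13 ± 0.079 (95% interval −0.30 to 0.048). Bank1, a scaffold for calcium release, averaged 55.5 CPM in control and was not called at −0.20 ± 0.18. Control 3, at 74.8 CPM, stood apart from the other 5 libraries, which held 44.3 to 55.8 CPM, and without it the log2 fold change was 0.08.

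Among the phosphatases, Ptprj was higher, Ptprc and Ptpn6 were lower and Inpp5d was not called. Ptprj (chromosome 2, 90429754 to 90580647, minus strand) encodes CD148, a receptor phosphatase that can activate Src family kinases by removing their inhibitory phosphate. It stood at 12.4, 13.1 and 14.3 CPM in cKO and 7.33, 6.36 and 10.0 CPM in control, from 563–606 and 250–413 counts. All cKO libraries were above all control libraries, of which control 3 was the highest. The log2 fold change was 0.75 ± 0.17 (edgeR adjusted p = 0.0041), or 1.68 times control. With the collagen and Sparc covariate it was 0.57 and no longer past a fold of 1.5. Ptprc, the CD45 phosphatase that acts on the same kinases, stood at 537, 505 and 546 CPM in cKO and 574, 589.9 and 658 CPM in control. Its log2 fold change was −0.20 ± 0.060 (edgeR adjusted p = 0.0204), and the call was lost without cKO 2 (0.0776), without control 3 (0.0793) and with the fibroblast marker covariate (0.0688).

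The restraining phosphatase SHP-1, encoded by Ptpn6, stood at 319, 301 and 317 CPM in cKO and 357, 383 and 367 CPM in control. All cKO libraries were lower, with a log2 fold change of −0.24 ± 0.050 (edgeR adjusted p = 0.00271). Inpp5d, which encodes the lipid phosphatase SHIP1, was not called at 0.022 ± 0.047 with a narrow 95% interval of −0.082 to 0.13. Csk, the kinase that places the inhibitory phosphate on Src family kinases, stood at 416, 399 and 401 CPM in cKO and 498, 483 and 495 CPM in control. It was lower in every cKO library, with a log2 fold change of −0.28 ± 0.046 (edgeR adjusted p = 0.000644). The ubiquitin ligases Cbl and Cblb, which target active kinases for degradation, were not called at 0.050 ± 0.074 (−0.12 to 0.22) and 0.045 ± 0.13 (−0.25 to 0.34).

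Compared per transcript length, the members covered a wide range of levels. In control libraries the top was shared by Cd79a at 679 ± 24.2 CPM per kilobase and Cd79b at 659.8 ± 23.3 (SD, n = 3), whose libraries overlapped. Cd22 followed at 335 ± 18.6, and then Ms4a1 at 188 ± 19.4, Grb2 at 187 ± 6.82 and Csk at 183 ± 3.02, which did not differ beyond their spread. At the other end stood Ptprj at 1.04 ± 0.249, Cr2 at 1.02 ± 0.301 and Pirb at 0.719 ± 0.140, with only Lair1 below them at 0.0820 ± 0.0268. The 2 members that rose past a fold of 1.5 were thus among the 4 lowest in control. In cKO, Cr2 reached 2.29 ± 0.355 and Ptprj 1.74 ± 0.119 CPM per kilobase, still below Cblb at 2.39 ± 0.248 on average.

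**Figure D4:**
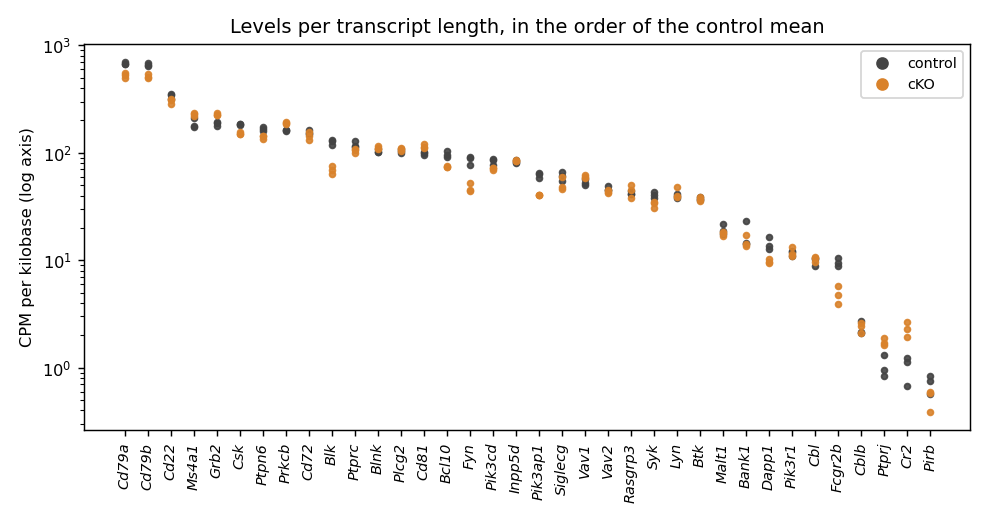
Level of each member but Lair1 in CPM per kilobase of transcript (vertical axis, log scale) in the 3 control and 3 cKO libraries, in the order of the control mean. Levels span from 679 (Cd79a) to 0.719 (Pirb) in the control mean, and the gaps between groups at Blk, Fyn, Fcgr2b, Cr2 and Ptprj are visible on this scale.

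Use of the transcripts within each member gene was tested as well. Of the 22 members with 2 or more listed transcripts, 19 kept at least 2 after filtering. By edgeR's diffSpliceDGE, 0 of the 19 differed at an adjusted p under 0.05, with a smallest value of 0.127 for Csk. At an unadjusted p under 0.05 there were 5 (Csk, Prkcb, Dapp1, Grb2 and Syk). Over all genes with 2 or more transcripts, 3.24% were called, so that a count of 0 among 19 is near the background. No other tool was run for this test.

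The wider pathway was read from a list of 81 further genes, of which 79 were tested. Of these, 20 (25.3%) were called higher and 35 (44.3%) lower, beside 24.1% and 24.5% of all genes, and the median log2 fold change was −0.17. The 55 activators among them had 17 calls higher and 23 lower, with a median of −0.13. The 24 inhibitors tested had 3 higher and 12 lower, with a median of −0.30. By role, the kinases (3 lower of 6), the adaptors (7 lower and 3 higher of 12), the calcium and NFAT genes (6 lower and 3 higher of 10) and the restraining enzymes and adaptors (8 lower and 3 higher of 18) leaned lower, while the GTPase and MAPK genes leaned higher (7 higher and 3 lower of 15).

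The 3 largest log2 fold changes in that list, among genes at 1 CPM or more, were in Sla2, Dok3 and Cd5, which restrain signaling. The activator Pik3cg followed at −1.76 ± 0.12. It was apart from Cd5 and from Sla2 by less than the SE of each, so this order is not settled. Dok3, an adaptor that restrains calcium and JNK signals in B cells, stood at 33.3, 27.3 and 31.0 CPM in cKO and 117, 123 and 103 CPM in control. Its groups were far apart, with a log2 fold change of −1.91 ± 0.088 (edgeR adjusted p = 6.57e-07). Dok1 (−0.88 ± 0.086) and Dok2 (−0.92 ± 0.14), its relatives, were lower too. Cd5, an inhibitory receptor of T cells and B-1 cells, stood at 1.499, 1.80 and 1.20 CPM in cKO and 6.49, 5.32 and 3.69 CPM in control, with a log2 fold change of −1.78 ± 0.26, and Sla2, an adaptor that restrains antigen receptors, at 0.485, 0.800 and 0.259 CPM in cKO and 2.13, 2.01 and 1.80 CPM in control, with −1.93 ± 0.42. No overlap was seen for either. T cells express both genes. Of the T cell markers given above, Cd28 was called lower in cKO as well and the others were at or near 0, and the part of T cells in Cd5 and Sla2 was not tested. Per the study's methods, the naïve B cells were purified by removing cells that carry CD5, CD43 and other surface markers, before the culture and the YFP+ sort. Pecam1, a receptor with an inhibitory tail, had a log2 fold change of −0.80 ± 0.11.

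Activators in that list moved both ways. Pik3cg, the PI3K catalytic subunit p110γ, stood at 13.1, 9.85 and 13.2 CPM in cKO and 42.4, 40.6 and 39.6 CPM in control, a log2 fold change of −1.76 ± 0.12 (edgeR adjusted p = 2.97e-06). Vav3, another of the Vav exchange factors, stood at 45.9, 46.9 and 59.2 CPM in cKO and 20.3, 18.98 and 20.6 CPM in control, a log2 fold change of 1.34 ± 0.11 (edgeR adjusted p = 7.82e-06). Neither gene overlapped between groups. The kinase Src had −1.12 ± 0.22, and the adaptors Themis2 and Lcp2 −0.83 ± 0.060 and −0.81 ± 0.094. The PI3K regulatory subunit Pik3r3 had 0.95 ± 0.25, and the adaptor Gab2, which binds PI3K, 0.92 ± 0.26. Together with the members, 4 of 8 Src family kinases were called lower (Blk, Fyn, Lck and Src) and 4 were not called.

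**Figure D5:**
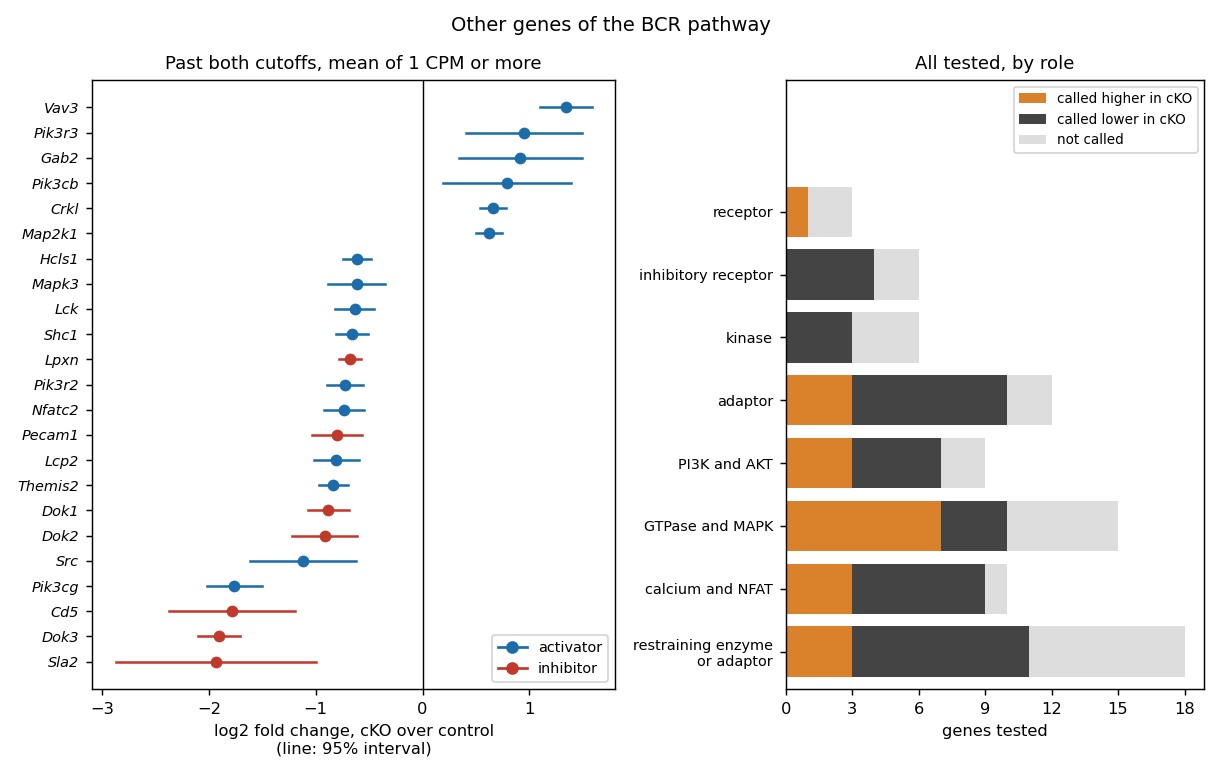
Left, log2 fold change with its 95% interval (horizontal axis, cKO over control) of those other pathway genes that passed p and fold cutoffs and averaged 1 CPM or more; right, the number of genes tested in each role that were called higher, called lower or not called. On the left 6 activators lie above 0 and 10 below, as do all 7 inhibitors, and on the right the GTPase and MAPK genes have the most calls higher (7 of 15).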

How the data were processed

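RNA was sequenced from 6 libraries, 1 per mouse. The authors trimmed the reads and made the deposited estimated counts, 1 table for genes and 1 for RefSeq transcripts, with HISAT2 and StringTie's prepDE script (mm10 per the submitters' notes; versions not given in the sources used here). These deposited estimated counts are whole and not normalized. The main comparison used edgeR 4.0.16 in R 4.3.3: filterByExpr with a minimum count of 10, TMM scaling and the quasi-likelihood test of genotype alone. Benjamini-Hochberg adjustment ran over all genes tested. A call is an adjusted p under 0.05, and a second rule adds a fold over 1.5. Intervals are at 95%. CPM used TMM-scaled totals. DESeq2 1.42.0 and the other settings were alternatives. Levels per kilobase divide each transcript's CPM by its length. RefSeq transcripts were assigned to genes by a table that matched 34674 of 36026. Locations are from GENCODE M21 on GRCm38. A floor of 3 counts was 0.0659–0.0768 CPM, and covers counting error only. The smallest p that an exact permutation of 3 against 3 mice allows is 0.1. The edgeR and DESeq2 steps were tested on simulated data.

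The 37 members and all other lists were chosen with earlier results of these data known. Named in full were members past both cutoffs, with the others given by role, and, of the other lists, at most the 15 genes with the largest fold change past both cutoffs and a mean of at least 1 CPM. Lck, Egr1, Cd69, the uncalled genes induced by the receptor and the single marker genes given (Fn1, Fbn1, Lox, Ly6g, Adgre1, Cd68, Cd74, the plasma cell and T cell genes and the collagen and Sparc set) fall outside this rule and were named after their values were seen. The markers' lists were otherwise used as sums, and as the mean log2 CPM where fibroblast markers were a covariate. Some genes counted in the lists are not reported by name here.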

Additional observations from a re-analysis of the deposited data

How the results depend on the processing

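The calls were recomputed with total counts only, with the size factors of DESeq2, by DESeq2 itself, with other filters on low counts, counts divided by 2, covariates for Xist and for fibroblast markers, and each library left out in turn. Members called higher numbered 6 to 7 and lower 12 to 15 over these. Requiring a fold over 1.5 left 2 and 4 members. The 6 members past that fold kept both cutoffs in every setting but the collagen and Sparc covariate, chosen after the data were seen, which kept 5. The median of the activators was −0.076 with the fibroblast covariate and −0.047 with the unsettled genes counted among them, and ran from −0.16 to −0.069 with 1 library left out. That of the inhibitors ran from −0.22 to −0.11 with 1 library left out, and was −0.26 with the Xist covariate and −0.24 with the replicate block. Over members and settings, 22 values lost a call, 5 gained one, 24 changed sign without a call and 539 did neither.

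None of the values that changed sign was called. Btk moved from −0.00086 to 0.0068, 0.0027, 0.0085, 0.0057, 0.0060, 0.0070, 0.028 and 0.024 in 8 settings. Rasgrp3 moved from 0.068 to −0.0012 and −0.035 in 2 settings. Cblb moved from 0.045 to −0.020, −0.038, −0.014 and −0.030 in 5 settings. Pik3r1 moved from 0.023 to −0.052, −0.063 and −0.023 in 3 settings. Bank1 moved from −0.20 to 0.061 and 0.077 in 2 settings. Lair1 moved from −0.20 to 0.034 and 0.36 in 2 settings. Lyn moved from 0.093 to −0.015 in 1 setting. Cbl moved from 0.050 to −0.022 in 1 setting. With 1 library left out in turn, Btk ran from −0.037 to 0.028, Rasgrp3 ran from −0.035 to 0.17, Cblb ran from −0.030 to 0.18, Pik3r1 ran from −0.063 to 0.080, Bank1 ran from −0.32 to 0.077, Lair1 ran from −1.35 to 0.36, Lyn ran from −0.015 to 0.15 and Cbl ran from −0.022 to 0.10. The cause was not tested.

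Same-numbered cKO and control libraries showed correlations of their deviations of 0.0099, 0.073 and 0.11, and differently numbered ones of −0.13 to 0.071. These values do not settle whether the numbers pair the mice, and the main comparison did not pair them. The study used paired t tests for the proliferation, death and surface proteins of iGCBs. With the replicate number as a block, 3069 genes were called higher and 3165 lower, and 7 and 14 members, 13 of the 14 lower being shared with the fit without it (Cd22 lost its call with an adjusted p of 0.0557, and Siglecg gained one at 0.0223). Leaving out immunoglobulin genes was not run, since none of the immunoglobulin constant-region genes looked for was among the counted genes. Lair1 had 0 to 17 counts per library and Pirb 66 to 133.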

Other observations

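The study's description of the culture names no antigen or antibody added to bind the receptor, so signaling after receptor ligation was not tested. Among genes that receptor ligation is known to induce, calls were no more common than among all genes. Of 11 listed, 10 were tested, 1 (10%) was called higher and 3 (30%) lower by edgeR at an adjusted p under 0.05, beside 24.1% and 24.5% of all genes. The other 6 were not called, with log2 fold changes of 0.23 ± 0.17 for Nr4a1, 0.020 ± 0.10 for Egr2, −0.016 ± 0.11 for Ier2, −0.41 ± 0.18 for Nr4a3, −0.38 ± 0.15 for Nfkbid and −0.92 ± 0.73 for Ccl3. Dusp2, a phosphatase of MAP kinases, stood at 159, 194 and 251 CPM in cKO and 336, 395 and 389 CPM in control, with a log2 fold change of −0.89 ± 0.14 (edgeR adjusted p = 0.000426). Egr3, a transcription factor of the early response, stood at 105, 98.7 and 119.7 CPM in cKO and 139, 177 and 249 CPM in control, with −0.80 ± 0.17 (edgeR adjusted p = 0.00308), and control 3 was well above the other libraries. Egr1, its relative, stood at 818, 761 and 1129 CPM in cKO and 1052, 1201 and 1187 CPM in control, where cKO 3 lay among the controls, and −0.35 ± 0.12 passed narrowly (edgeR adjusted p = 0.0417). Cd69, an early surface activation marker, went the other way at 231, 236 and 297 CPM in cKO and 166, 135 and 147 CPM in control, with 0.77 ± 0.10 (edgeR adjusted p = 0.000163).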
